A study of Mus musculus with 6 samples.

Results

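The AP-1 transcription factor genes were followed through differentiation of C2C12 cells, a mouse myoblast line that fuses into multinucleated myotubes once serum is lowered. The 10 genes examined were Fos, Fosb, Fosl1, Fosl2, Jun, Junb, Jund, Atf3, Maff and Batf3, found by symbol among the 43074 symbols of a deposited table of raw RNA-seq counts. All libraries came from the same wild-type line. Day 0 cells were untreated and sampled from growth medium with fetal bovine serum, and the other cells spent 4 days in differentiation medium with horse serum, with either the solvent DMSO or 4-phenylbutyric acid (4-PBA) at 1 mM. 4-PBA is an aromatic fatty acid that inhibits histone deacetylases and eases protein folding. Each of the 3 groups had 2 libraries. A comparison with day 0 therefore joins the change of medium, the 4 days and the added compound or solvent, and both such comparisons share the day 0 libraries. The labels do not say whether the 2 libraries of a group came from separate cultures, so the p-values measure the spread between these libraries, which may be technical. Bulk libraries from a mix of fused and unfused cells cannot tell fewer cells of a type from less RNA per cell.

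AP-1 is a pair of leucine-zipper proteins held together on DNA. A Fos protein binds only with a partner, usually a Jun protein, whereas Jun proteins can also pair among themselves, and the pair reads the site TGANTCA or, with ATF partners, the site TGACNTCA. Many AP-1 genes are rapid-response genes that growth factors and stress switch on through ERK, JNK and p38 kinases, and in cultured myoblasts the Jun protein is known to bind MyoD and to hold back its activity. The title of the series names NF-κB and Egr-1, which, like AP-1, are known to respond quickly to such signals.

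Total counts lay between 47908926 and 74697397 per library, and the common biological coefficient of variation was 3.74%. All 10 genes passed the filter on low counts, among 17433 genes tested, although Batf3 passed only through its day 0 counts. Of the myoblast and myotube markers, all 9 tested changed from day 0 in both day 4 groups, beside 66.3% and 65.6% of all tested genes. Of the 9, 8 rose and Myf5 fell. Pax7, of those that rose, had only 15 and 21 counts at day 0. Myog, the factor that starts terminal differentiation, went from a mean of 7.90 CPM to 287 CPM with DMSO and 288 CPM with 4-PBA. CPM is the count relative to the TMM-scaled library total. In 4-PBA cells 3 of these 9 markers fell relative to DMSO, namely Des, Mymk and Acta1, with log2 fold changes of -0.11, -0.17 and -0.094. Over all tested genes, 2.78% were called lower in that comparison. Of 9 markers of other cell types, 5 were tested, of which Cd68 and Pecam1 fell with DMSO against day 0, Cd68 fell with 4-PBA against day 0, and 0 were called between 4-PBA and DMSO. Their summed level was 6.28 and 6.54 CPM at day 0, 2.36 and 3.26 under DMSO and 2.16 and 3.19 under 4-PBA, most of it from Cd68 of macrophages, while Ptprc of leukocytes had at most 3 counts and Epcam of epithelium at most 4 in any library. The part of such cells in the results was not tested.

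Promoter windows of 300 bases, from 250 before to 50 after a start site, were at hand for 9 of the 10 genes, all but Fosl1 (11 windows, RefSeq, GRCm38.p6). They were searched on both strands and positions are counted from the start site as +1. The windows printed here are those that hold the ATF-type AP-1 site TGACNTCA or the κB motif that NF-κB reads, since these are the sites through which AP-1 factors and NF-κB are known to act. Capitals mark the matches.

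Fos, chr12:85473640-85473939, plus strand: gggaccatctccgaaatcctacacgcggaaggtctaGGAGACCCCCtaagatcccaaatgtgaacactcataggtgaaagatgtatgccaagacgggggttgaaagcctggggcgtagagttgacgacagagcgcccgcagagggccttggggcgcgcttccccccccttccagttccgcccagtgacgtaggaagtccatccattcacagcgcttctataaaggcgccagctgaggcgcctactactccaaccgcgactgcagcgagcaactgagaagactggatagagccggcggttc
Fosb, chr7:19309996-19310295, minus strand: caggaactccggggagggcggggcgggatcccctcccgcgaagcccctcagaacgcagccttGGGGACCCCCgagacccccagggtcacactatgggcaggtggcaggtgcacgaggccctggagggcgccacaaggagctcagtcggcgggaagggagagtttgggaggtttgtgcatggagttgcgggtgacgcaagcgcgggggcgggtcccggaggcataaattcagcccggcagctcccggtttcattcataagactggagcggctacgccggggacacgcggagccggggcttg
Fosl2, chr5:32136222-32136521, plus strand: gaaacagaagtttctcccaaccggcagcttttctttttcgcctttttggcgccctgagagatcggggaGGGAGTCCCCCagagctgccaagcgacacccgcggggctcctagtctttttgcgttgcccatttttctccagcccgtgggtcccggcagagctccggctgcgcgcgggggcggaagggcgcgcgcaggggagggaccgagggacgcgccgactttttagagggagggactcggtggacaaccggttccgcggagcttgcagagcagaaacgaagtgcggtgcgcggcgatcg
Jun, chr4:95052173-95052472, minus strand: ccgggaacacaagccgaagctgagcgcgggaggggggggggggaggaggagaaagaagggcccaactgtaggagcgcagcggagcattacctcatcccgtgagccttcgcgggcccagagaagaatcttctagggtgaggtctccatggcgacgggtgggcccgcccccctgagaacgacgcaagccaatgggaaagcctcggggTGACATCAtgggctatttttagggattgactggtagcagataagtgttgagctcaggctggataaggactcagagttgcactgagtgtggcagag
Maff, chr15:79347270-79347569, plus strand: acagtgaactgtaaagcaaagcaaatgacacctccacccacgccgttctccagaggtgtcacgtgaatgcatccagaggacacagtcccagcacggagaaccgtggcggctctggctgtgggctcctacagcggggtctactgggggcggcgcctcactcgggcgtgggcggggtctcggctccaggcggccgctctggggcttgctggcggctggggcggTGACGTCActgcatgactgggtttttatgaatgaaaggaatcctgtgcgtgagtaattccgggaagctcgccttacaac
Maff, chr15:79348152-79348451, plus strand: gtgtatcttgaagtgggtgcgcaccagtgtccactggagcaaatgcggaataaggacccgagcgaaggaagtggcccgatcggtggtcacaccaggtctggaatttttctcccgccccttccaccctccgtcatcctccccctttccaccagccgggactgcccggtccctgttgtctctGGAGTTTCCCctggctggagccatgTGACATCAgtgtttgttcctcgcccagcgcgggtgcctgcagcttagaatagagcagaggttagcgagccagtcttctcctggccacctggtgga

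The site TGACNTCA was found at -45 to -38 of Jun, at -29 to -22 of a Maff window and at -45 to -38 of another, against 8.83% of 32851 promoter windows of the same length. Only the Maff site at -29 has the letters TGACGTCA, which read the same on both strands, and the other matches read TGACATCA. The κB motif was found at -214 to -205 of Fos, at -188 to -179 of Fosb, at -182 to -172 of Fosl2 as a pair of overlapping matches and at -70 to -61 of Maff, against 8.46% of all windows. The site TGANTCA was in 0 of the 11 windows and in 7.81% of all windows, and the CArG box that SRF reads was in 0 of the 11 and in 1.63% of all. The GC-box letters GGGCGG, in contrast, were in 8 of the 11 windows, from 7 genes, and in 35.7% of all windows. In the windows with GGGCGG, 58.7% to 75.7% of letters were G or C, beside a median of 52.7% over all windows. The shares over all windows were not matched for this. These matches describe letters in a short window and do not show binding.

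The 10 genes spanned a wide range of levels. Levels between genes are given per length as RPKM, from TMM-scaled counts and the exon length of each gene. Jund, known for its steady expression in resting cells, was highest in every group, at 183 ± 4.55 RPKM at day 0, 246 ± 11.1 with DMSO and 262 ± 0.660 with 4-PBA (mean ± SD, n = 2). At day 0 the order went on with Fosl1 at 91.1 RPKM, Jun at 70.5, Junb at 39.4, Maff at 23.1, Fosl2 at 12.1 and Atf3 at 10.6, and ended with Fos at 1.03, Fosb at 0.548 and Batf3 at 0.211 RPKM. The libraries of neighbouring genes did not overlap anywhere in that order.

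At day 4 Fosl1 stood at rank 7 in place of rank 2. With DMSO, Jun followed Jund at 73.8 RPKM, then Junb at 60.5, Fosl2 at 20.3, Atf3 at 18.6, Maff at 14.5, Fosl1 at 12.7, Fos at 5.02, Fosb at 0.624 and Batf3 at 0.0211 RPKM. The order was the same with 4-PBA, where Fosl1 was at 9.43 and Fos at 8.36 RPKM. Neighbours whose libraries overlapped were Fosl2 and Atf3 in both day 4 groups, Maff and Fosl1 with DMSO, and Fosl1 and Fos with 4-PBA. With the longest transcript as the length, Junb stood above Jun in both day 4 groups and the order was otherwise unchanged.

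**Figure D1:**
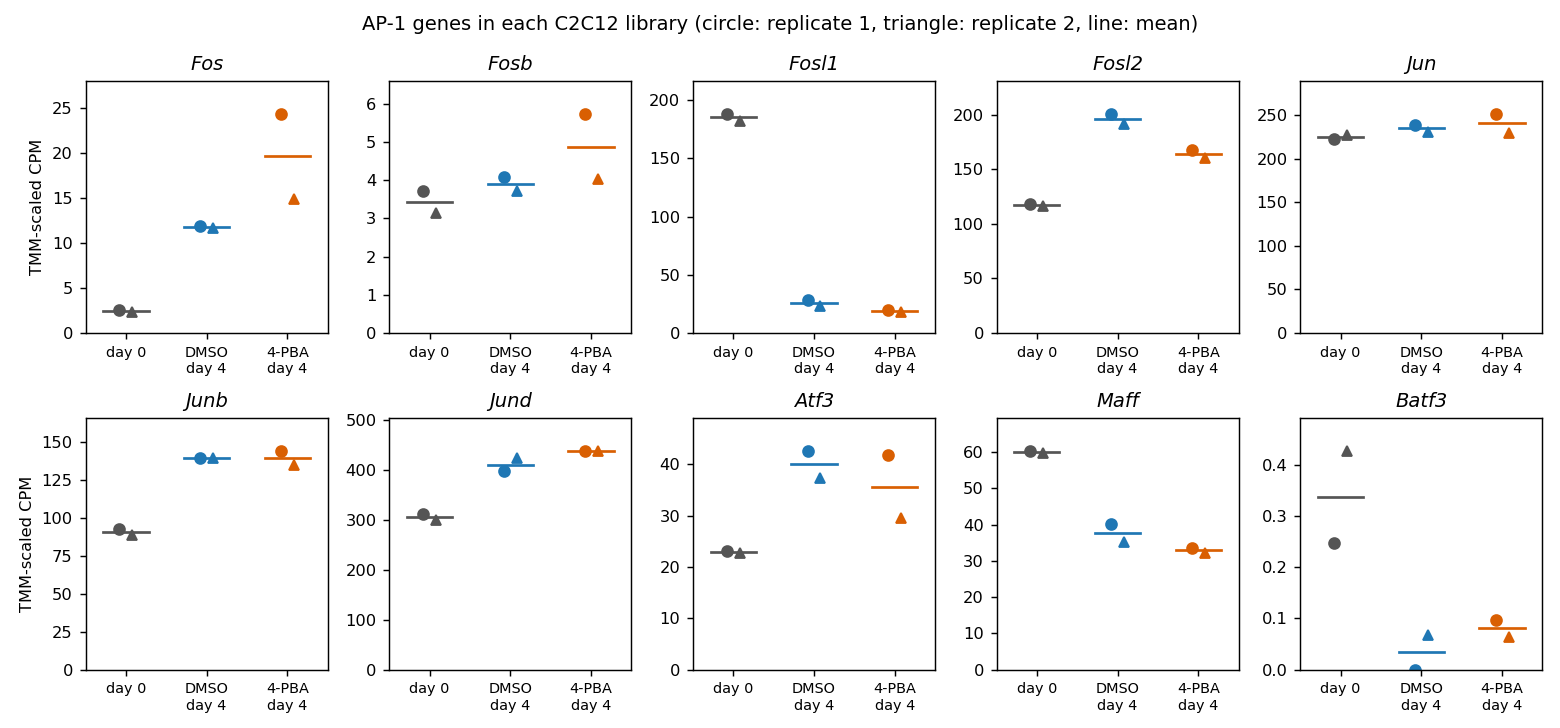
Each panel plots TMM-scaled CPM (y axis from 0) of 1 gene in the 6 libraries, with circles for replicate 1, triangles for replicate 2 and a line at the group mean. Fosl1 drops from 182 and 188 CPM at day 0 to between 18.3 and 28.5 CPM at day 4, while the 2 libraries with 4-PBA lie far apart for Fos, at 24.4 and 15.0 CPM.

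Against day 0, 5 genes rose with DMSO (Fos, Fosl2, Junb, Jund and Atf3), 2 fell (Fosl1 and Maff), and Fosb and Jun did not pass the test. Batf3 is left out of the counts and medians against day 0, because the filter let it in through its day 0 counts alone. A gene was called at an adjusted p under 0.05 in edgeR's quasi-likelihood test, with the Benjamini-Hochberg adjustment made over the whole table. In this comparison 66.3% of all tested genes were called, 33.8% higher and 32.6% lower, beside 7 called of the other 9 AP-1 genes (77.8%), a share not far from that over all genes. The median log2 fold change of the 9 was 0.43, beside 0.023 over all genes.

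With 4-PBA against day 0, 6 genes rose (Fos, Fosb, Fosl2, Jun, Junb and Jund), Fosl1 and Maff fell, and Atf3 did not pass. Here 65.6% of all tested genes were called, 33.2% higher and 32.4% lower. The median of the 9 genes was 0.52, beside 0.018 over all genes.

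Between 4-PBA and DMSO at day 4, 3 of the 10 genes were called, Fosl2, Fosl1 and Maff, all lower with 4-PBA. In this comparison 4.9% of all tested genes were called, 2.13% higher and 2.78% lower, and 2908 genes had an unadjusted p under 0.05. Over the whole table, 855 genes were called, but 341 and 295 without 4-PBA replicate 1 and replicate 2, and 1194 without DMSO replicate 1, where more were higher (634) than lower (560). In the main edgeR fit none of the 10 was called higher, although Jund, Fosb and Fos were higher in the mean. Their unadjusted p-values were 0.00574, 0.0474 and 0.0586 (edgeR). The median of the 10 genes was 0.018, beside 0.0021 over all genes.

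**Figure D2:**
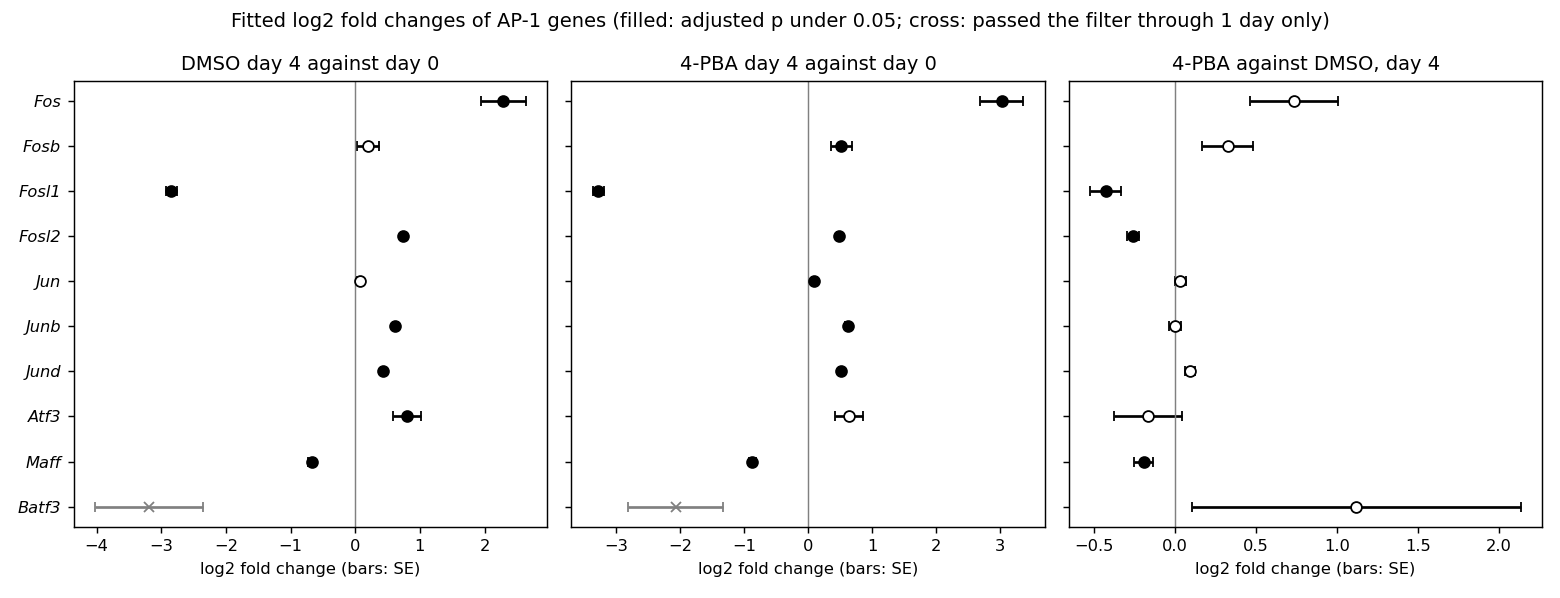
Fitted log2 fold changes (x axis, a scale of its own in each panel) with bars of 1 standard error for the 10 genes in the 3 comparisons, filled where the adjusted p is under 0.05, with grey crosses for Batf3 against day 0, which was not read as a test. With DMSO against day 0, Fosl1 lies at -2.85 and Fos at 2.29, and only Fosl2, Fosl1 and Maff are filled between 4-PBA and DMSO.

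Fosl1 encodes Fra-1, a Fos-family protein without a strong activation domain that is tied to growth and ERK signalling. It was at 188 and 182 CPM at day 0, at 28.5 and 23.2 CPM under DMSO and at 20.0 and 18.3 CPM under 4-PBA. Both day 0 libraries lay far above all day 4 libraries, and both 4-PBA libraries lay below both DMSO libraries. The mean fell 7.17-fold under DMSO (log2 fold change -2.85, SE 0.0855, adjusted p = 5.67e-09, edgeR) and 9.66-fold with 4-PBA (-3.27, SE 0.0891, adjusted p = 2.86e-09, edgeR), beside a median size of change of 0.48 over all genes with DMSO.

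Relative to DMSO, Fosl1 with 4-PBA fell by 0.43 on the log2 scale (SE 0.0949, adjusted p = 0.0474, edgeR), or 25.8% of its mean. That call is close to the threshold. It was lost with DESeq2 size factors (adjusted p = 0.0628), with library size only (0.0517) and without either 4-PBA library (0.0809 and 0.191), and the log2 fold change lay between -0.57 without DMSO replicate 2 and -0.28 without DMSO replicate 1. The DMSO libraries differed by 0.30 on the log2 scale for Fosl1, and 201 of 10659 genes with a mean of at least 5 CPM differed by more. The exons of Fosl1 overlap Ccdc85b on the other strand, as those of Jun overlap Junos, those of Junb overlap Prdx2 and those of Jund overlap Gm11175 (GENCODE M21). Whether the counting used strand is not given in the sources used here, so reads of each pair cannot be told apart. Of the list genes named below, Mafg (Sirt7), Elk1 (Uxt), Elk4 (Gm29103), Rps6ka5 (Gm49703) and Spp1 (Gm42793) overlap a gene on the same strand. Several others, among them Ccnd1, Hmga1, Mafk, Elk3 and Mrtfa, overlap genes on the other strand.

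Fosl2 encodes Fra-2, and its window printed above holds the κB motif, as do those of Fos and Fosb. It was at 118 and 117 CPM at day 0, at 201 and 192 CPM under DMSO and at 168 and 160 CPM under 4-PBA. The 3 groups did not overlap, with DMSO highest and 4-PBA between the other groups. Fosl2 rose 1.67-fold under DMSO (log2 fold change 0.74, SE 0.0351, adjusted p = 9.87e-20, edgeR) and 1.40-fold with 4-PBA (0.48, SE 0.0352, adjusted p = 1.92e-14, edgeR).

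From DMSO to 4-PBA its level fell by 16.4%, a log2 fold change of -0.26 (SE 0.0345, adjusted p = 7.93e-06, edgeR). Of the 10 genes, Fosl2 alone was called in this comparison under all 14 alternatives tried, with log2 fold changes from -0.29 to -0.22 and adjusted p-values of up to 0.00458.

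Fos, the gene of the classic rapid-response factor c-Fos, was at 2.53 and 2.32 CPM at day 0, at 11.9 and 11.7 CPM under DMSO and at 24.4 and 15.0 CPM under 4-PBA. All day 4 libraries lay above day 0 and both 4-PBA libraries lay above both DMSO libraries, but the 4-PBA pair was itself spread out. Fos rose 4.87-fold under DMSO (log2 fold change 2.29, SE 0.350, adjusted p = 0.00678, edgeR) and 8.11-fold with 4-PBA (3.03, SE 0.339, adjusted p = 0.00251, edgeR). The rise with DMSO lost its call without any single day 0 or DMSO library (adjusted p from 0.0588 to 0.0788, edgeR). In a model of the day 0 and DMSO libraries alone the adjusted p was 1.83e-13 (edgeR), at a log2 fold change of 2.28.

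The day 4 groups of Fos differed by 0.74 on the log2 scale, 4-PBA being higher, which did not pass the test (SE 0.271, adjusted p = 0.326, edgeR). Its 4-PBA libraries differed 1.63-fold, or by 0.70 on the log2 scale, and 15 of 10663 genes with at least 5 CPM differed by more between them, where the median was 0.046. Without 4-PBA replicate 2 the log2 fold change was 1.05, and without 4-PBA replicate 1 it was 0.34. Each of these fits leaves 1 library with 4-PBA, so the spread of that pair does not enter it. With both libraries, the difference was called with no filter on low counts (adjusted p = 0.0195, edgeR).

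Fosb was low, at 3.70 and 3.13 CPM at day 0, 4.09 and 3.71 CPM under DMSO and 5.73 and 4.03 CPM under 4-PBA. Its 4-PBA replicate 1 stood above all other libraries and replicate 2 lay among the DMSO values. Fosb rose 1.43-fold from day 0 under 4-PBA (log2 fold change 0.52, SE 0.163, adjusted p = 0.00553, edgeR), a call lost without day 0 replicate 2 (0.40, adjusted p = 0.0959, edgeR) and without 4-PBA replicate 1 (0.25, adjusted p = 0.264, edgeR). With DMSO the change was 0.20 (SE 0.165, adjusted p = 0.302, edgeR), and between 4-PBA and DMSO it was 0.33 (SE 0.158, adjusted p = 0.291, edgeR).

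The make-up of the Fos family turned over. As a share of the summed RPKM of Fos, Fosb, Fosl1 and Fosl2, Fosl1 took 86.9% ± 0.0920 at day 0, 32.8% ± 2.56 with DMSO and 26.6% ± 1.47 with 4-PBA (mean ± SD, n = 2). Fosl2 took 11.6% ± 0.180, 52.5% ± 1.79 and 47.9% ± 4.06 in the same order and was the most abundant Fos-family transcript at day 4. Fos went from 0.984% to 13.0% and 23.2%, and Fosb was at most 2.39% in any library.

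In single libraries, the share of Fos was 12.5% and 13.6% under DMSO and 27.0% and 19.5% with 4-PBA. The share of Fosl1 was 34.6% and 31.0% under DMSO and 25.6% and 27.7% with 4-PBA. Neither gene's libraries overlapped between these groups, but relabelling 2 libraries against 2 cannot give an exact two-sided p below 0.333, so no test of a share is given. The summed level of the family was 105 ± 2.35 RPKM at day 0, 38.6 ± 2.59 with DMSO and 35.5 ± 4.17 with 4-PBA.

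**Figure D3:**
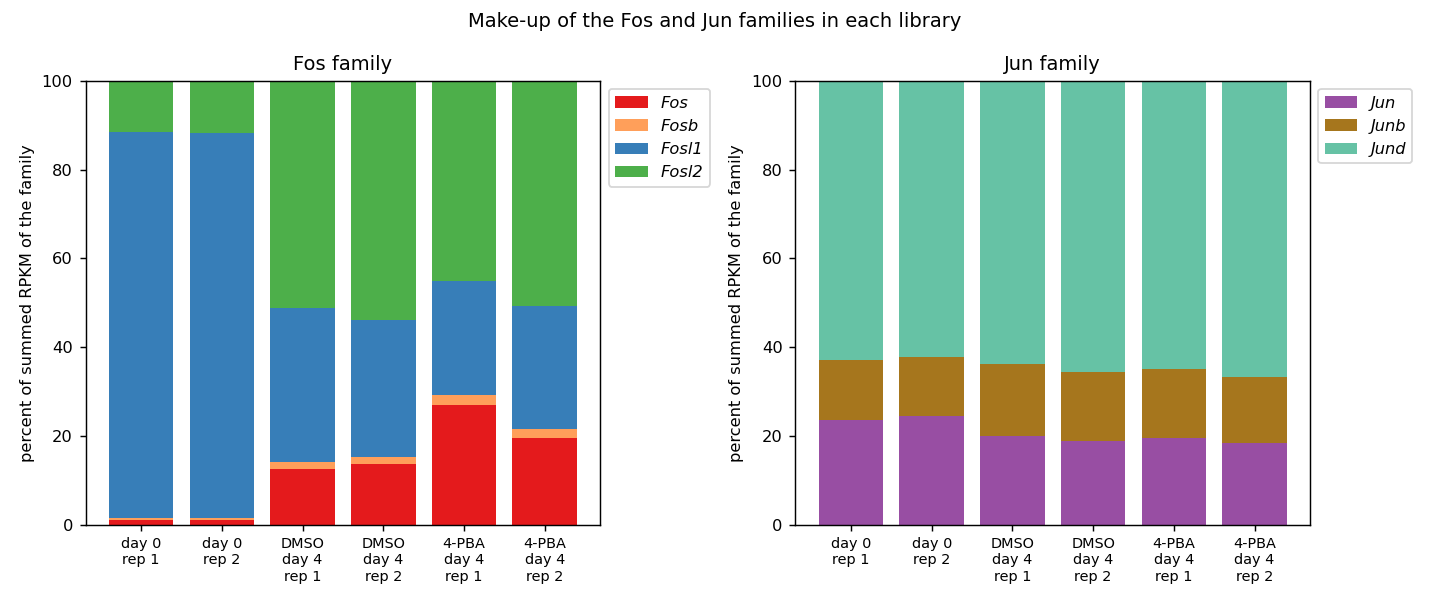
Stacked bars give each gene's percent of the summed RPKM of its family in each of the 6 libraries (y axis, 0 to 100), with the Fos family on the left and the Jun family on the right. Fosl1 fills 87.0% and 86.9% of the Fos family in the day 0 libraries and at most 34.6% at day 4, whereas the Jun family keeps Jund at 62.2% to 66.8% throughout.

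The Jun family moved less. Jun, the gene of c-Jun, was at 222 and 227 CPM at day 0, 239 and 231 CPM under DMSO and 252 and 230 CPM under 4-PBA, so that the day 4 groups overlapped and lay slightly above day 0. Its rise with 4-PBA against day 0 was 1.07-fold (log2 fold change 0.10, SE 0.0355, adjusted p = 0.0139, edgeR) and was lost without day 0 replicate 1 (0.083, adjusted p = 0.135, edgeR) or 4-PBA replicate 1 (0.041, adjusted p = 0.443, edgeR). With DMSO the change was 0.066 (SE 0.0355, adjusted p = 0.103, edgeR), and it was called with a stricter filter (0.083, adjusted p = 0.0337, edgeR). Without DMSO replicate 2 the change was 0.088. The difference between 4-PBA and DMSO was 0.035 (SE 0.0354, adjusted p = 0.709, edgeR).

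Junb, whose protein is known to oppose c-Jun at several promoters, was at 92.7 and 88.5 CPM at day 0, 139 and 140 CPM under DMSO and 144 and 134 CPM under 4-PBA. Day 0 lay below all day 4 libraries, and the DMSO values fell between those of the 4-PBA pair. Junb rose 1.54-fold with DMSO and 1.54-fold under 4-PBA (log2 fold changes 0.62 and 0.62, SE 0.0378 and 0.0379, adjusted p = 1.31e-16 and 1.44e-16, edgeR). Its log2 difference between 4-PBA and DMSO was 0.00068 with an SE of 0.0370 (adjusted p = 0.996, edgeR).

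Jund was at 311 and 300 CPM at day 0, 397 and 423 CPM under DMSO and 437 and 438 CPM under 4-PBA. The groups did not overlap. It rose 1.34-fold under DMSO (log2 fold change 0.43, SE 0.0317, adjusted p = 3.98e-14, edgeR) and 1.43-fold with 4-PBA (0.52, SE 0.0317, adjusted p = 1.96e-16, edgeR). The change of Jund from DMSO to 4-PBA was 0.093 (SE 0.0315, adjusted p = 0.0835, edgeR). This passed the threshold in limma-voom (adjusted p = 0.0475) and without DMSO replicate 2 (0.14, adjusted p = 7.48e-04, edgeR), and was 0.047 without DMSO replicate 1.

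Within the Jun family the shares of Jund, Jun and Junb were 62.5%, 24.0% and 13.4% at day 0, 64.7%, 19.4% and 15.9% under DMSO and 65.9%, 19.0% and 15.2% with 4-PBA. The summed level was 293 ± 4.84 RPKM at day 0, 380 ± 9.57 under DMSO and 398 ± 7.06 with 4-PBA. The ratio of summed Jun-family to summed Fos-family RPKM was 2.80 ± 0.0164 at day 0, 9.88 ± 0.910 with DMSO and 11.3 ± 1.13 with 4-PBA. Over the same step from day 0 to DMSO, Fosl1 alone went from 91.1 to 12.7 RPKM.

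Atf3, a stress-induced partner of Jun proteins that often represses, was at 23.0 and 22.7 CPM at day 0, 42.7 and 37.3 CPM under DMSO and 41.7 and 29.5 CPM under 4-PBA. All day 4 libraries lay above day 0, and the DMSO values lay within or just above the wide 4-PBA pair. It rose 1.75-fold under DMSO (log2 fold change 0.80, SE 0.217, adjusted p = 0.0449, edgeR). The call was lost under 6 of 14 alternatives, among them leaving out any single day 0 or DMSO library (adjusted p from 0.129 to 0.189, edgeR), and in a model of the day 0 and DMSO libraries alone the adjusted p was 8.91e-10 (edgeR).

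With 4-PBA against day 0, Atf3 was 1.56-fold higher without passing the test (log2 fold change 0.64, SE 0.220, adjusted p = 0.0816, edgeR). It passed without 4-PBA replicate 1 (0.37, adjusted p = 2.19e-04, edgeR), without 4-PBA replicate 2 (0.87, adjusted p = 3.64e-12, edgeR) and in the DESeq2 Wald test (adjusted p = 0.00665). The value of Atf3 for 4-PBA against DMSO was -0.17 (SE 0.209, adjusted p = 0.808, edgeR), and its sign followed the library left out, at -0.44 (adjusted p = 0.00162, edgeR) without 4-PBA replicate 1 and 0.064 (adjusted p = 0.830, edgeR) without 4-PBA replicate 2. The 4-PBA pair differed by 0.50 on the log2 scale for Atf3, and 24 of 10663 genes differed by more. Replicate 1 was the higher of the 4-PBA pair for 9 of the 10 genes, all but Jund, beside 7 of 10 with DMSO and 8 of 10 at day 0. The share of all tested genes higher in replicate 1 was not computed, so these counts are not particular to AP-1 genes. The part of 4-PBA replicate 1 in these results was otherwise not tested.

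Maff, a small Maf protein that has no activation domain and pairs with CNC factors such as Nfe2l2, was at 60.4 and 59.6 CPM at day 0, 40.2 and 35.2 CPM under DMSO and 33.6 and 32.2 CPM under 4-PBA. The 3 groups did not overlap. It fell 1.59-fold under DMSO (log2 fold change -0.67, SE 0.0546, adjusted p = 7.67e-13, edgeR) and 1.82-fold with 4-PBA (-0.87, SE 0.0555, adjusted p = 1.99e-15, edgeR). The fall between DMSO and 4-PBA was 0.19 on the log2 scale (SE 0.0563, adjusted p = 0.0402, edgeR), but 9 of 14 alternatives lost that call, including the DESeq2 Wald test (adjusted p = 0.0940), limma-voom (0.0560) and every omission of a library other than DMSO replicate 2. Without DMSO replicate 1 the value was -0.096, and without DMSO replicate 2 it was -0.29. Of the Maff windows printed above, the second holds both motifs.

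Batf3, known as a factor of dendritic cells, was close to the detection limit with 12 and 30 counts at day 0, 0 and 5 under DMSO and 6 and 4 under 4-PBA. Day 0 lay above all day 4 libraries. No test against day 0 is given for it, because it passed the filter through its day 0 counts alone. A difference between 4-PBA and DMSO was not detectable at these counts (log2 fold change 1.12, SE 1.02, adjusted p = 0.657, edgeR).

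**Figure D4:**
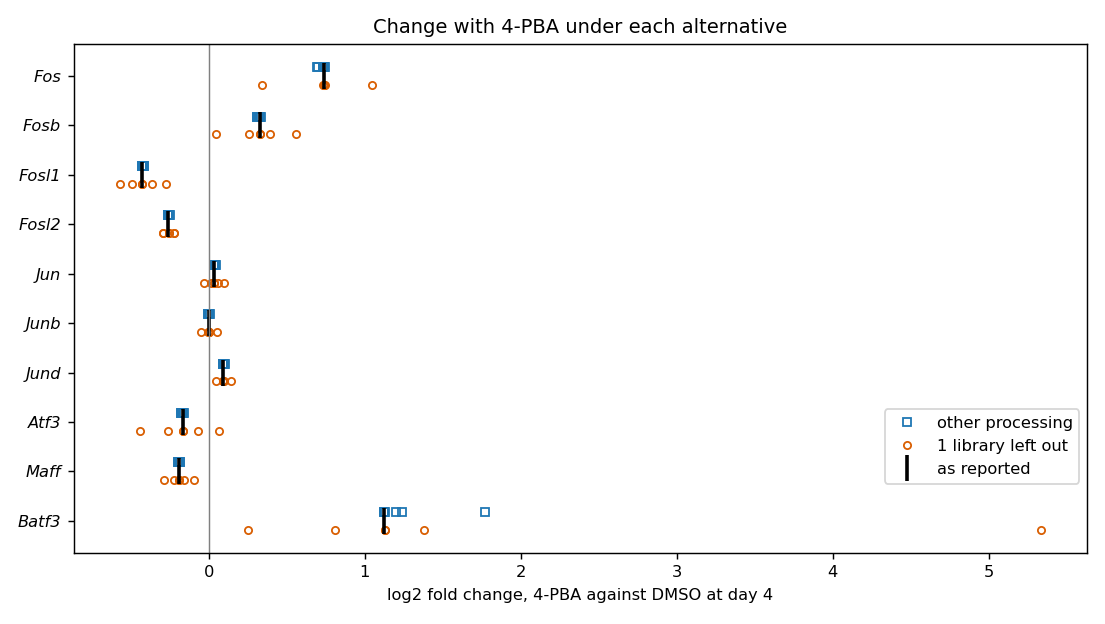
Log2 fold changes between 4-PBA and DMSO at day 4 (x axis) for each of the 10 genes, with a black bar for the reported value, blue squares for other processing and orange circles for fits that leave out 1 library. The values of Fosl2 stay between -0.29 and -0.22, while those of Fos run from 0.34 to 1.05 and those of Atf3 from -0.44 to 0.064.

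Other leucine-zipper genes that can pair with or compete with AP-1 proteins were read beside the 10. Of 17 tested, 9 rose and 5 fell in each comparison with day 0, and 1 rose and 3 fell between 4-PBA and DMSO. These 14 called of 17 (82.4%) stand beside 66.3% and 65.6% over all genes against day 0, and the 4 called between 4-PBA and DMSO (23.5%) beside 4.9%. Bach1, a repressor that pairs with small Maf proteins at AP-1-like sites, was at 64.7 and 61.1 CPM at day 0, 143 and 144 CPM under DMSO and 109 and 104 CPM under 4-PBA. Like Fosl2 it was highest with DMSO and intermediate with 4-PBA, with no overlap between groups. It rose by 1.19 on the log2 scale with DMSO and by 0.76 with 4-PBA, and the fall of 0.43 between 4-PBA and DMSO (SE 0.0379, adjusted p = 2.59e-09, edgeR) was called under all 14 alternatives.

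The large Maf genes Maf and Mafa, which bind extended AP-1-like sites, rose from day 0 by 1.77 and 2.10 on the log2 scale with DMSO and by 2.04 and 1.97 with 4-PBA. Against DMSO, the small Maf gene Mafg fell by 0.16 with 4-PBA (adjusted p = 0.00296, edgeR), the small Maf gene Mafk fell by 0.17 (adjusted p = 0.0269, edgeR), and Jdp2, a repressor that pairs with Jun proteins, rose by 0.17 (adjusted p = 0.0106, edgeR). The call of Mafk was lost under 4 of 14 alternatives and those of Mafg and Jdp2 under 1. The median of these 17 genes was -0.047 between 4-PBA and DMSO, beside 0.0021 over all genes.

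Among 21 tested genes of the kinase cascades that feed AP-1, 7 rose and 11 fell with DMSO against day 0, and 6 rose and 8 fell with 4-PBA. The called shares were 85.7% and 66.7%, beside 66.3% and 65.6% over all genes, so that the latter is the share over all genes. Rps6ka2, an ERK-activated kinase, went from 155 and 159 CPM at day 0 to 74.1 and 68.8 CPM under DMSO and 66.4 and 64.8 CPM under 4-PBA, with log2 fold changes of -1.14 and -1.26. The p38 activators Map2k3 and Map2k6 fell with DMSO, with log2 fold changes of -0.69 and -1.04, whereas the JNK scaffold gene Mapk8ip1 rose by 0.83 and the kinase gene Rps6ka5 by 0.95. Between 4-PBA and DMSO, Mapk14, which encodes p38α, rose by 0.15 (adjusted p = 0.0192, edgeR) and Map3k1 by 0.49 (adjusted p = 0.0348, edgeR). Map2k3 fell by 0.16 (adjusted p = 0.00557, edgeR). Rps6ka1 rose by 1.07 (adjusted p = 0.0494, edgeR), close to the threshold and at few counts, with 28 and 34 under DMSO and 50 and 68 under 4-PBA. Mapk14 and Map2k3 lost their calls under 3 and 2 of 14 alternatives. Map3k1 lost its call under 6 of 14 alternatives, and without 4-PBA replicate 2 this list had 0 called genes.

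SRF and its partners, which are known to switch on Fos, were split. In both day 4 groups Elk1, Elk4 and Mrtfb rose and Srf, Elk3 and Mrtfa fell. These 6 called of 6 (100%) stand beside 66.3% and 65.6% over all genes against day 0. Elk3, a ternary complex factor that can repress, fell with DMSO and under 4-PBA (log2 fold changes of -0.79 and -0.75), and Elk1 rose by 0.40 and 0.46. With 4-PBA, Srf differed from DMSO by 0.020 (adjusted p = 0.892, edgeR). Elk4 fell by 0.14 relative to DMSO (adjusted p = 0.0166, edgeR) and Mrtfb fell by 0.15 (adjusted p = 0.0335, edgeR). The 2 called of 6 (33.3%) stand beside 4.9% over all genes. Mrtfb lost its call under 6 of 14 alternatives and Elk4 under 3. Neither fall was called once a 4-PBA library was left out, where this list had 0 called genes.

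All 32 listed AP-1 target genes were tested, but Mmp9 and Mmp13 passed the filter through day 4 alone and are left out of the counts against day 0. Of the other 30, 12 rose and 16 fell with DMSO, and 11 rose and 17 fell with 4-PBA, where 33.8% and 33.2% of all genes were called higher and 32.6% and 32.4% lower. The medians of the 30 were -0.56 and -0.62. Ccnd1, the cyclin D1 gene, fell from 601 and 597 CPM at day 0 to 141 and 132 CPM under DMSO and 111 and 112 CPM under 4-PBA, with log2 fold changes of -2.13 and -2.42. Hmga1, a chromatin protein gene of growing cells, fell with log2 fold changes of -3.03 and -3.20. The antioxidant enzyme gene Nqo1 fell too, at -3.22 and -3.22, and the protease gene Mmp10 was at -2.88 with DMSO. The protease gene Mmp2 rose by 1.94 and 2.04, and Mmp14 rose by 0.72 with DMSO and 0.82 with 4-PBA. Mmp3 rose by 2.11 and 2.23, but at few counts, with 8 and 14 at day 0, 50 and 60 under DMSO and 50 and 58 under 4-PBA. Of the matrix protease genes measured at both days, 3 rose, Mmp3 near the detection limit included, and Mmp10 fell.

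In the comparison of 4-PBA with DMSO, 8 of the 32 targets were called, 2 higher and 6 lower (Cd44, Ccnd1, Spp1, Areg, Ereg and Vegfa), beside 2.13% higher and 2.78% lower over all genes. Spp1, the osteopontin gene, was at 1024 and 957 CPM under DMSO and 793 and 828 CPM under 4-PBA, a fall of 0.29 (SE 0.0302, adjusted p = 3.03e-07, edgeR), and Ccnd1 fell by 0.29 (SE 0.0328, adjusted p = 4.38e-07, edgeR). The EGF-family ligand gene Ereg fell by 0.43 (SE 0.0938, adjusted p = 0.00497, edgeR), a call lost under 2 of 14 alternatives. The metallothionein genes Mt1 and Mt2, close paralogs that bind zinc, rose by 0.35 and 0.52 (adjusted p = 5.94e-04 and 5.71e-04, edgeR). The median of the 32 was -0.0077, beside 0.0021 over all genes.

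The genes whose pattern over the 6 libraries was most like that of the 3 genes called between 4-PBA and DMSO were sought by Pearson's r of log2 CPM among 10673 genes with a mean of at least 5 CPM. For Fosl1 they were Etv4, Wdr36 and Pim3, at r of 0.9999, 0.9997 and 0.9994. Etv4, an ETS factor gene known as an output of ERK signalling, was at 130 and 130 CPM at day 0, 56.3 and 51.0 CPM under DMSO and 47.5 and 46.4 CPM under 4-PBA. For Fosl2 they were Ercc6, Mex3b and Kmt2c, at 0.9991, 0.9990 and 0.9989, and for Maff they were Prelid2, Serp2 and Fgd3, at 0.9987, 0.9986 and 0.9985. The 6 points share 3 groups and differ mainly between days, and r was above 0.95 for 3034 genes with Fosl1, 948 with Fosl2 and 2081 with Maff.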

How the data were processed

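RNA was sequenced from directional libraries, per the labels' protocols, and the authors deposited 1 table of raw counts, with a row per gene symbol and a column per library. The genome build was GRCm39, per the submitters' processing notes; the aligner, the counter and whether counting used strand are not given in the sources used here. Of 43074 symbols, 13014 had no counts. The counts went into edgeR 4.0.16 (R 4.3.3): filterByExpr, TMM scaling, 1 model of 3 group means over all 6 libraries with robust glmQLFit (3 residual degrees of freedom), and the quasi-likelihood F test, adjusted by Benjamini-Hochberg over 17433 tested genes. The standard error (SE) is the log2 fold change divided by the square root of F. CPM are after TMM scaling, and RPKM divide them by GENCODE M21 exon length. Replicates differed by more than sampling noise (chi-square per degree of freedom 3.88, 7.05 and 5.57). With 2 libraries a group, the test borrows its spread from other genes. A fit that leaves out a library has 1 library in that group. Its p-values then rest on the spread within the other groups alone, so calls gained or lost there are weak evidence.

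The members and lists were chosen with earlier results of these data known. Named list genes were, per list and comparison, up to 3 called genes with the smallest adjusted p and up to 3 with the largest change among those called at 5 CPM or more without overlap; Rps6ka1, Srf, Cd44, Vegfa, the protease genes Mmp3, Mmp9, Mmp13 and Mmp14 and the markers were named after their values were seen. Alternatives used size factors of DESeq2, library size alone, no low count filter, a stricter filter, the DESeq2 1.42.0 Wald test and limma-voom (limma 3.58.1). Others were a model restricted to the libraries compared, a block for the replicate number and omission of each library. For the lists, all these alternatives were added after seeing the data. The stricter filter asked that both of a group's libraries reach 10 counts. It also set a floor on the mean CPM of a gene, which Batf3 did not reach. A further marker of other cell types is not reported here, so the counts and summed levels of those markers cover only the 9 given. Promoters were matched by symbol from RefSeq (GRCm38.p6), with no coordinates carried between builds. The methods were run on simulated data with changes put only into genes above a floor of counts. That run does not cover genes with few counts such as Batf3, and its outcome is not given here. Figures were drawn with matplotlib 3.10.9.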

Additional observations from a re-analysis of the deposited data

How the results depend on the processing

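Of 416 recomputed log2 fold changes of the 10 genes, 364 kept their direction and side of the threshold, 32 lost and 12 gained a call, and 8 turned sign, all uncalled. These include 13 values of Batf3 in each comparison with day 0, which were not read as tests. Of 644 values of the named list genes, 28 lost a call and 0 turned. Between 4-PBA and DMSO, library size only left 1 of the 10 genes called (1 lower), and 1 was called higher with no low count filter, limma-voom and the replicate block. Omitting a library gave 0 to 1 called higher and 1 to 3 lower there, and, for DMSO against day 0, 5 to 8 called, Batf3 included, with 3 to 5 higher. For the lists between 4-PBA and DMSO, the stricter filter called 7 other leucine-zipper genes. The signalling list had 2 called with the DESeq2 Wald test, only 4 libraries and the replicate block, and the SRF list 1 with the DESeq2 Wald test and the block. Omitting a library gave 2 to 6, 0 to 3 and 0 to 2 called in those 3 lists. For Junb the value was -0.0015 with no filter, -0.0017 with the stricter filter, -0.00027 in limma-voom and -0.00042 with the replicate block, and -0.050 to 0.050 when a library was omitted; for Jun that range was -0.030 to 0.098 and for Atf3 -0.44 to 0.064. The cause was not tested. The labels do not say whether libraries with the same replicate number were handled together. Over all tested genes, correlations of replicate deviations between groups were -0.028, -0.0031 and -0.012, which cannot settle this. The replicate block kept 27 of 30 values, Batf3 included. It made Fos (adjusted p = 0.0129, edgeR) between 4-PBA and DMSO and Atf3 with 4-PBA against day 0 called. It left 768 called genes in place of 855 between 4-PBA and DMSO. With the longest transcript, Fosl1 took 83.2%, 27.4% and 22.4% of the Fos family at day 0, with DMSO and with 4-PBA. With that length, 17 of 21 family shares moved by more than their SD. Of 60 RPKM values with that length or with library size only, 24 moved by more than their SD. The SD between libraries therefore does not cover the choice of length. Library size only moved the share of higher calls from 43.4% to 51.5%. Batf3 had no value under the stricter filter.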
